A study of Irpex lacteus with 14 samples.

Results

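Transcript levels of the white-rot fungus Irpex lacteus on pine wood were set against its levels on pure cellulose, gene by gene. The comparison covered the 967 of 977 genes in the deposited table that reached a normalised read count of 10 on at least 2 of the 5 substrates. Of these, 239 genes (24.7%) were at least 2-fold higher on pine and 113 (11.7%) were at least 2-fold lower. The balance rests on the scaling of the table: once the median difference per gene was set to 0, the split was 175 higher and 168 lower. Of the higher genes, 56.1% were also at least 2-fold above maltose on wheat straw, beside 24.5% of all genes compared. Of the lower genes, 45.1% were at least 2-fold below maltose on straw, beside 19.9%, and 27.4% at least 2-fold above it, beside 24.5%. On aspen, 26.5% of the lower genes were above maltose and 26.5% below, beside 21.0% and 6.41% of all genes. The table is not taken to cover the whole genome, so ranks and shares below hold among the 967 genes only.

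The fungus was strain CCBAS Fr. 238 617/93, grown as mycelium for 3 days at 30 °C in shaken 100 ml cultures, and polyadenylated RNA was sequenced as paired ends. The pine cultures (2 libraries) and the cellulose cultures (3 libraries) shared one basal medium with 2.5 g per litre of maltose, and each held 15 g per litre of its solid. The pine was ground and sieved below 2 mm, and the cellulose was Avicel, a microcrystalline powder for which the label gives no sieve size. The substrates used below only as outside levels were wheat straw (3 libraries, same maltose and solid load), aspen (3 libraries, 15 g per litre of wood milled to 1 mm, maltose level not legible in the label) and maltose alone (3 libraries, 20 g per litre). The table gives 1 pooled value per gene and substrate, so no spread between libraries, interval or p-value can be given for any gene. "Higher" and "lower" therefore mean only that the deposited log2 values were at least 1 apart. Depth per library is unknown, and whether the libraries came from separate cultures is not stated. The values are relative read counts, so a change in transcripts per hypha cannot be told apart from a change in the share of hyphae in a given state.

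White-rot fungi such as Irpex lacteus break down lignin together with the polysaccharides of wood. They do so with secreted oxidative enzymes, among them heme peroxidases, and with hydrolytic enzymes. Crystalline cellulose is attacked mainly by cellobiohydrolases, endoglucanases and copper-dependent lytic polysaccharide monooxygenases. Pine is a softwood, whose lignin is built largely from guaiacyl units, whose main hemicellulose is a galactoglucomannan and which holds resin extractives. Avicel offers the cellulose with almost none of this. The genes carry the numbers of a genome portal and the files do not pair them with names, functions or positions. Neither these enzymes nor any other pathway could therefore be picked out in the table, and only 6 genes are given by number.

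The difference of pine minus cellulose had a median of 0.31 on the log2 scale over the 967 genes, with the middle 50% of genes between -0.34 and 0.98. Its scaled median absolute deviation was 0.98. Pine held the larger value for 602 genes (62.3%). Beside it, and sharing its cellulose values, wheat straw minus cellulose had a median of 0.04 and a scaled deviation of 1.11, and aspen minus cellulose a median of -0.01 and a scaled deviation of 0.67. At a 4-fold difference, 94 genes (9.72%) were higher on pine and 44 (4.55%) lower. Between 1 and 2 log2 units the counts were 145 higher and 69 lower, and between 2 and 3 units they were 63 and 32. Between 3 and 4 units they were 23 and 6. Beyond 4 units, 8 genes were higher and 6 were lower. The higher gene nearest the 2-fold limit stood at 1.00 and the nearest lower one at -1.03, and the nearest genes outside the limits were at 0.996 and -0.9998. The cellulose value lay under a count of 10 in 7 of the 239 higher genes and the pine value in 4 of the 113 lower genes. Under a log2 value of 6, the numbers were 51 of the higher and 35 of the lower genes. With 8 added to the linear values, 224 genes were higher and 104 lower.

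**Figure D1:**
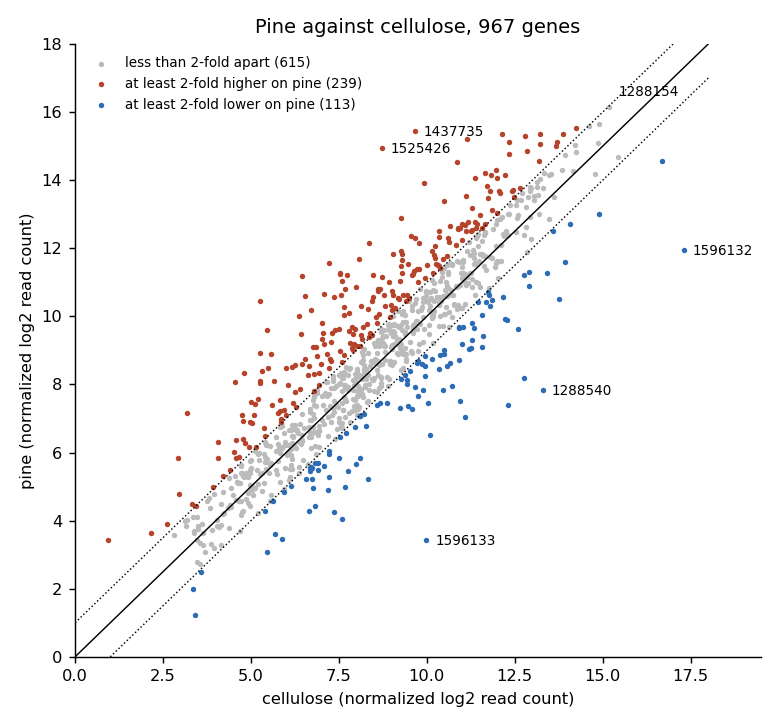
Normalized log2 read count on pine (y axis) against cellulose (x axis), 1 point per gene for 967 genes, with the line of equal values and dotted lines 1 log2 unit to either side. The 239 genes at least 2-fold higher on pine (red) outnumber the 113 lower ones (blue), and the 6 numbered genes include the points farthest from the line in both directions.

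Gene 1525426 had the largest positive difference. Its log2 value was 14.95 on pine and 8.71 on cellulose, a 75.3-fold excess on pine (6.24 log2 units, or 5.92 above the median difference). Outside the comparison it stood at 13.81 on wheat straw, 6.50 on aspen and 9.32 on maltose. It was thus high on pine and straw and lowest on the other wood, aspen. By read count, which is not corrected for gene length, it ranked 17 on pine and 454 on cellulose.

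Gene 1437735 followed with a different profile. It had 15.45 on pine and 9.66 on cellulose, a 55.5-fold excess on pine (5.79 log2 units). Its level was 14.16 on aspen, 9.22 on wheat straw and 11.79 on maltose. Here both woods were high and straw was the lowest of the 5 substrates, below cellulose. Among the 967 genes it took rank 5 by read count on pine and rank 333 on cellulose.

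The next 10 genes in the order of positive differences lay 3.76 to 5.19 log2 units above cellulose. All 10 were also at least 2-fold above maltose on both of the outside plant materials, as were 140 of all 967 genes. Over the full 12, the levels on pine ran from 7.17 to 15.45 with a median of 11.43, and those on cellulose from 3.19 to 11.15 with a median of 7.37. Wheat straw minus maltose was at least 1 in 11 of the 12 (24.5% of all genes), with gene 1437735 at -2.57 as the exception. Aspen minus maltose was at least 1 in 11 as well (21.0% of all genes), with gene 1525426 at -2.82 as the exception. The leading pair is therefore unlike the 10 genes behind it, which stood above maltose on both outside plant materials. The fourth gene in this order is an example: 11.20 on pine and 6.45 on cellulose, with 9.46 on wheat straw, 9.77 on aspen and 5.49 on maltose. Most of the 10 genes differed from it in standing higher on straw than on aspen.

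In the other direction, gene 1596133 had the largest difference. Its log2 value was 3.43 on pine and 9.98 on cellulose, 6.55 log2 units lower on pine. It also stood low on wheat straw (3.21), in between on aspen (6.04) and higher on maltose (8.74), though below cellulose. Its pine count is small, so the size is uncertain, and adding 8 to both linear counts before the logarithm brought the difference to -5.76. The gene with the preceding number, 1596132, had the highest read count of the table on both cellulose and maltose, and the third largest negative difference. It had 11.96 on pine and 17.31 on cellulose, a 40.8-fold deficit on pine. Its other levels were 11.55 on wheat straw, 14.22 on aspen and 17.16 on maltose, so both genes kept the same order of substrates from straw as the lowest through pine, aspen and maltose, with cellulose highest. Gene 1596132 alone held 0.16% of the summed linear values on pine and 9.04% on cellulose.

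Gene 1288540, with the second largest negative difference, belonged to another pattern. It had 7.84 on pine and 13.30 on cellulose, 44.0-fold lower on pine. It was almost as high on wheat straw (13.01) as on cellulose, and lower on aspen (9.08) and on maltose (6.25). The fourth and sixth genes of the order had the same form. The fourth was at 7.40 on pine and 12.32 on cellulose, with 12.26 on wheat straw, 7.98 on aspen and 6.23 on maltose. The sixth was at 7.05 on pine and 11.08 on cellulose, with 10.91 on wheat straw, 8.57 on aspen and 6.24 on maltose. The fifth gene was instead high on cellulose (12.77) and maltose (13.16) and low on pine (8.19) and wheat straw (8.42), with 11.18 on aspen. It resembled gene 1596132, except that maltose was its highest substrate and pine its lowest.

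The 12 genes with the largest negative differences thus fell on both sides of maltose. Wheat straw minus maltose was at least 1 in 5 of them and at most -1 in the other 7, beside 24.5% and 19.9% of all genes. Aspen minus maltose was at least 1 in 4 and at most -1 in 5, beside 21.0% and 6.41% of all genes. Their pine levels ran from 3.43 to 11.96 with a median of 7.23, and their cellulose levels from 7.35 to 17.31 with a median of 11.01.

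**Figure D2:**
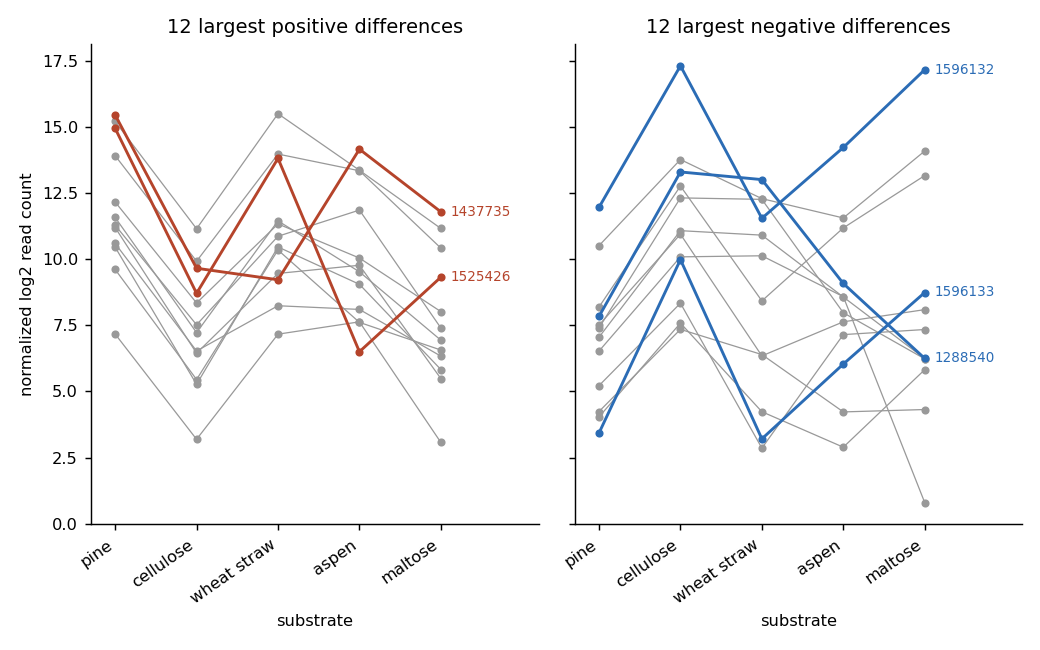
Normalized log2 read count on each substrate (x axis) for the 12 genes with the largest positive (left) and the 12 with the largest negative (right) difference of pine minus cellulose, 1 line per gene, with numbered genes in colour. Most lines on the left are high on pine, straw and aspen and low on cellulose and maltose, while those on the right part on maltose, from 0.80 to 17.16.

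The full lists of called genes were then read on the outside substrates. The wheat straw, aspen and maltose values entered only the filter on low counts, and differences among them share no value with pine minus cellulose. Among the 239 genes higher on pine, the median log2 level was 10.45 on pine and 8.33 on cellulose. On the outside substrates it was 9.93 on wheat straw, 9.24 on aspen and 8.12 on maltose. Of these genes, 134 (56.1%) were at least 2-fold above maltose on wheat straw and 8 (3.35%) at least 2-fold below it. Over all 967 genes the shares were 24.5% and 19.9%. On aspen, 103 (43.1%) were above maltose and 5 (2.09%) below, beside 21.0% and 6.41% over all genes. Compared with all genes, a larger share of the genes higher on pine thus stood above maltose on each outside plant material. A smaller share stood below it.

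For the 113 genes lower on pine the median level was 7.84 on pine and 9.74 on cellulose, with 8.21 on wheat straw, 8.40 on aspen and 7.74 on maltose. On wheat straw 31 of them (27.4%) were at least 2-fold above maltose, close to the 24.5% of all genes, and 51 (45.1%) below, beside 19.9% of all genes. On aspen 30 were above and 30 below (26.5% each), beside 21.0% above and 6.41% below among all genes. The 31 genes above maltose on straw had medians of 8.25 on pine and 10.65 on cellulose, and of 11.10 on wheat straw, 8.94 on aspen and 5.89 on maltose. Their straw and maltose levels, like their pine and cellulose levels, stand apart because the genes were picked so. The 51 genes below maltose on straw had medians of 7.51 on pine and 9.42 on cellulose, and of 6.49 on wheat straw, 8.43 on aspen and 9.05 on maltose. Here too the split itself puts straw below maltose and pine below cellulose. A difference of at least 4-fold was found in 15 of the 31 and in 23 of the 51, beside 44 of all 113 lower genes. Of the 31 lower genes level with maltose on straw, 6 reached it.

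Viewed as an order of levels, pine held the highest of the 5 values in 152 of the 239 higher genes, and cellulose the lowest in 80. Wheat straw exceeded pine in 62 of them, lay between pine and cellulose in 143 and fell below cellulose in 34. Aspen exceeded pine in 32 and lay between in 165. Maltose exceeded pine in 3, lay between in 104 and was below cellulose in 132. Among the 113 lower genes, cellulose held the highest value in 59 and pine the lowest in 32. Maltose was above cellulose in 29, between in 55 and below pine in 29. Aspen lay between pine and cellulose in 80, below pine in 23 and above cellulose in 10. Straw lay between them in 47, below pine in 47 and above cellulose in 19. These counts describe the levels only. Selection itself keeps pine from being lowest and cellulose from being highest in the higher genes, and the reverse in the lower ones. The same counts over all genes compared are not given, so whether these exceed the shares in the table was not tested. An error in a pine or cellulose value moves a gene into the list and to the end of this order at once.

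The reverse view, with genes sorted by the outside substrates alone, showed which of them differed between pine and cellulose. The 140 genes above maltose on both wheat straw and aspen had a median pine minus cellulose of 1.29. Of them, 76 (54.3%) were higher and 23 (16.4%) lower on pine, beside 24.7% and 11.7% of all genes. The middle 50% of that class ran from -0.07 to 2.59. The 93 genes above maltose on straw but level on aspen had a median of 1.19, with 55 higher (59.1%) and 8 lower (8.60%). The 51 genes above maltose on aspen but level on straw had 0.94, with 24 higher (47.1%) and 3 lower (5.88%). The 478 genes level with maltose on both had 0.28, close to the median of all genes, with 72 higher (15.1%) and 25 lower (5.23%). This split turned under each of the 4 rescalings, to 33 higher and 46 lower with quantile normalisation, 37 and 49 with a common column median, 39 and 45 with the median difference removed, and 27 and 65 with a common sum. In the 131 genes below maltose on straw only, the median was -0.18, with 4 higher (3.05%) and 20 lower (15.3%). The 49 genes below maltose on both had a median of -1.15, with 1 gene higher (2.04%) and 27 lower (55.1%) on pine. Removing the median difference of all genes takes the same amount off each gene and keeps the gaps between these medians by construction. The medians became 0.98, 0.88, 0.62, -0.03, -0.49 and -1.46. Quantile normalisation gave 0.93, 0.82, 0.70, -0.06, -0.45 and -1.46 for the same 6 classes, in the same order. Across the 967 genes, pine minus cellulose had a Pearson's r of 0.31 (Spearman's rho of 0.45) with wheat straw minus maltose and of 0.27 (rho of 0.36) with aspen minus maltose. The genes are not independent replicates, and all columns share the authors' normalisation.

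**Figure D3:**
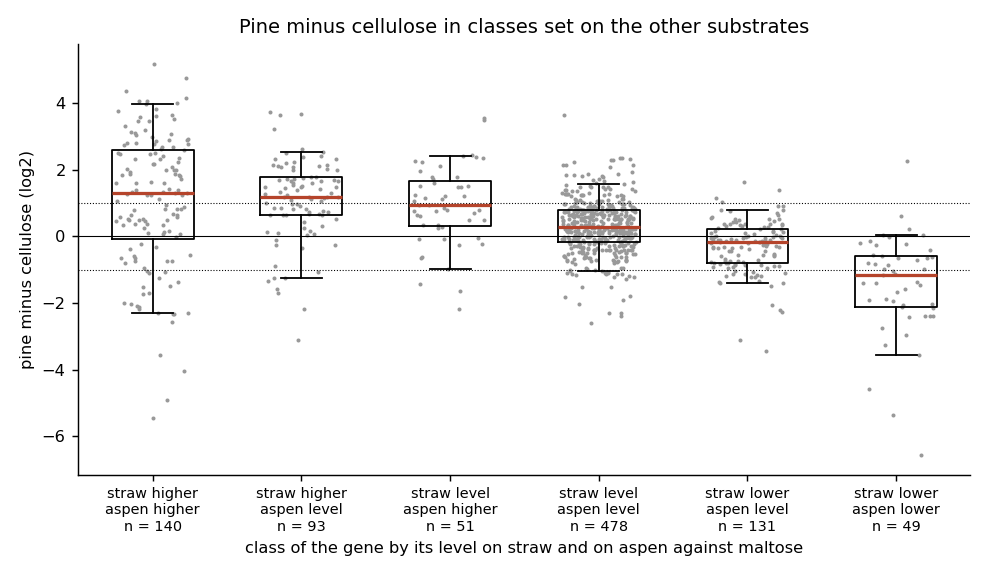
Difference of pine minus cellulose (y axis, log2) for genes classed by wheat straw and aspen against maltose (x axis; higher or lower means at least 1 log2 unit), 1 point per gene, with boxes for the middle 50%, red medians, whiskers at the 5th and 95th percentiles and dotted lines at 1 and -1. Medians run from 1.29 in genes above maltose on both materials to -1.15 in genes below it on both; 3 small classes of 4, 9 and 12 genes are not drawn.

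The difference also varied with the level of a gene. Genes were divided into 5 groups of 193 or 194 by the mean log2 value on maltose, wheat straw and aspen, a level that contains neither pine nor cellulose and is not corrected for gene length. The median difference was 0.12 in the lowest group, 0.17, 0.21 and 0.36 in the next 3, and 0.73 in the highest. In the highest group 65 of 194 genes were higher on pine and 19 lower. In the lowest group 31 of 194 were higher and 25 lower. The spread differed little, with scaled median absolute deviations between 0.93 and 1.07. Removing the median difference takes the same amount off every gene, so it cannot change the gaps between the group medians. The highest group then had 48 higher and 21 lower genes, and the lowest group 19 higher and 39 lower. Quantile normalisation, which forces the same distribution on each column, brought the medians to 0.01 in the lowest group and 0.03 in the highest. The counts still differed, with 26 higher and 37 lower genes in the lowest group and 37 higher and 25 lower in the highest. Whether the trend comes from the fungus or from the scaling was not tested.

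**Figure D4:**
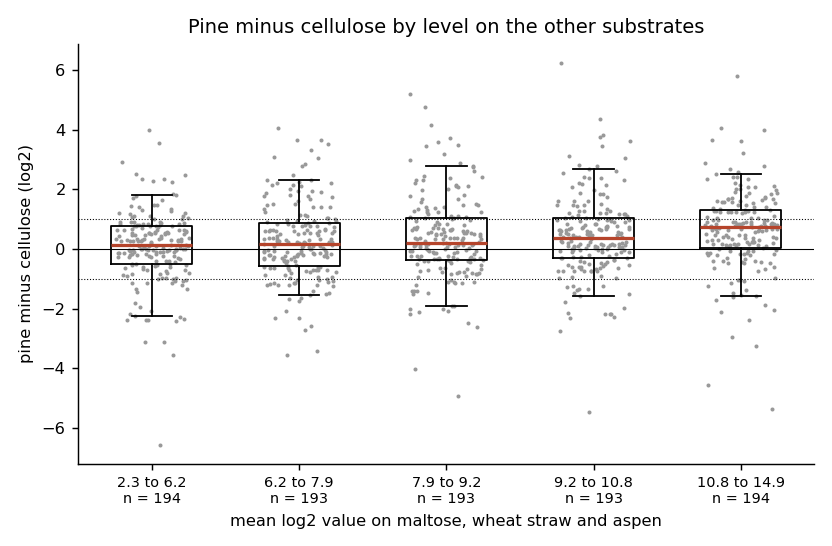
Difference of pine minus cellulose (y axis, log2) by the mean log2 value on maltose, wheat straw and aspen (x axis, 5 groups of 193 or 194 genes), drawn as points, boxes for the middle 50%, red medians and whiskers at the 5th and 95th percentiles. The median climbs from 0.12 in the lowest group to 0.73 in the highest, while the boxes keep a similar height.

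The 10 genes with the highest read counts held 18.6% of the summed linear values on pine and 28.5% on cellulose, and 3 genes were in both top lists. On maltose the 10 highest held 28.4%, and 9 of them were also in the cellulose list. The share was 16.8% on wheat straw and 14.9% on aspen. Without gene 1596132 the 10 highest held 18.6% on pine, 22.6% on cellulose and 22.0% on maltose. The 100 genes with the highest read counts held 69.4% on pine and 67.7% on cellulose. A share of 50% of the sum was reached with 46 genes on pine and 43 on cellulose. The gene with the highest count on pine, 1288154, was 0.97 log2 units above its cellulose level (16.15 on pine and 15.18 on cellulose), just under the 2-fold limit. It was high on every substrate, with 15.39 on wheat straw, 14.88 on aspen and 14.31 on maltose. Its rank was 1 on aspen, 3 on straw, 4 on cellulose and 9 on maltose. The 239 higher genes, selected on these values, made up 47.9% of the sum on pine and 17.1% on cellulose. On the substrates not used to select them they held 41.4% on wheat straw, 32.2% on aspen and 19.7% on maltose. The 113 lower genes held 3.81% on pine and 29.2% on cellulose, and 8.83% on wheat straw, 9.99% on aspen and 25.3% on maltose. Without gene 1596132 the lower genes held 3.66% on pine and 22.2% on cellulose, and 17.3% on maltose. By these shares, wheat straw lay nearer to pine and maltose nearer to cellulose in both lists. Aspen lay nearer to pine for the lower genes and about midway for the higher ones.

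The excess of higher genes depended on how the columns were scaled. The summed linear values were 1.41-fold larger on pine than on cellulose (0.50 log2 units), the column median was 0.37 higher and the median difference per gene was 0.31. Quantile normalisation gave 170 higher and 168 lower genes, a common column median gave 170 and 178, and a common sum gave 148 and 206. Of the 239 genes higher as deposited, 142 remained at least 2-fold higher under each of the 5 scalings (as deposited and 4 rescalings), and at 4-fold 46 of 94 did. All 113 lower genes remained lower, and 43 of 44 at 4-fold. Each rescaling brought down the median of pine minus cellulose, which by itself favours the lower genes. All rescalings but quantile normalisation take the same amount off every gene, so under them no lower gene could leave its list. The counts that remained therefore do not compare how firm the higher and lower lists are. The table gives no means to choose between the scalings.

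**Figure D5:**
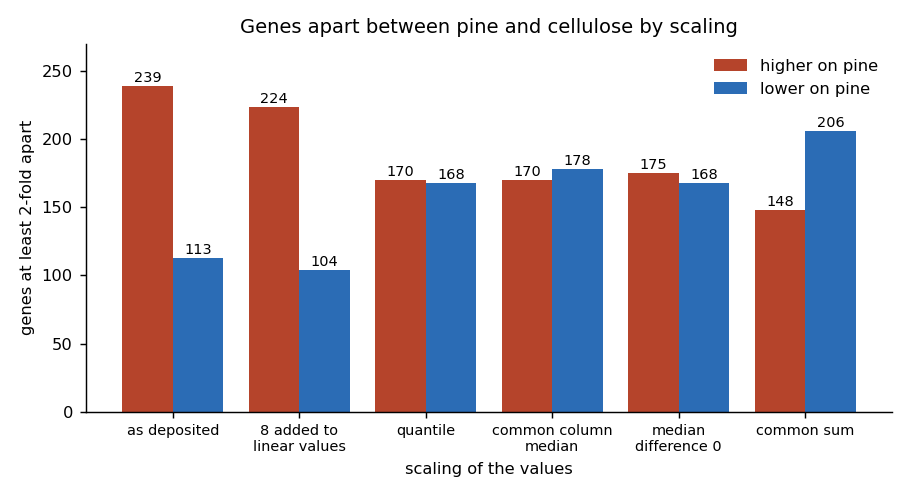
Number of genes (y axis, from 0) at least 2-fold higher (red) and lower (blue) on pine than on cellulose under the deposited scaling and 5 alternatives (x axis). The split of 239 and 113 as deposited becomes 175 and 168 once the median difference is set to 0, and turns to 148 and 206 with a common sum.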

How the data were processed

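The authors deposited 1 table for the series, with normalized log2 read counts, 1 column per substrate, per the file headers. The submitters' processing notes list TopHat2, HTSeq and DESeq 1.5 without saying what each was used for. Not given in the sources used here are the genome build, annotation, strand setting, size factors and way of pooling libraries.

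Of 1000 rows, 23 repeated another row exactly and were dropped, which left 977 genes. A gene was kept when its normalised count reached 10 in at least 2 of 5 substrates, and 10 genes were dropped: the second highest log2 value was 3.35 in the kept gene nearest the limit and 3.30 in the nearest dropped one. How the authors selected the rows is not known. The pine value minus the cellulose value was the measure. A test on values per library (limma) had been planned and could not be fitted to pooled values, so only sizes are given. The rule for numbered genes took the 2 largest differences in each direction and the gene with the highest count on each of pine and cellulose. Members, lists, classes and limits were chosen with earlier results of these data known, and the planned gene lists of wood-decay enzymes could not be filled. Alternatives were 2 other filters, 8 added to the linear values, 4 rescalings and keeping repeated rows. Counting and rescaling were tested on simulated data. Calculations used Python 3.11.15, NumPy 2.4.6 and pandas 2.3.3.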

Additional observations from a re-analysis of the deposited data

How the results depend on the processing

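The 2-fold and 4-fold counts moved by less than 1.5 times with no filter, the stricter filter (a log2 value of 6), 8 added to the linear values and repeated rows kept. Rescaling moved more. At 2-fold, the genes higher on pine numbered 148 with a common sum, and the lower ones 178 with a common column median and 206 with a common sum. At 4-fold, the higher genes numbered 61 with quantile normalization, 59 with a common column median and 50 with a common sum, against 94 as deposited. The median difference was -0.046 with quantile normalization, -0.054 with a common column median and -0.18 with a common sum, and 0 by construction once set so. The differences of the 5 called genes given by number kept their direction and stayed over 2-fold in each alternative: gene 1525426 ranged from 5.26 to 6.24, gene 1437735 from 5.14 to 5.79, gene 1596133 from -7.05 to -5.76, gene 1288540 from -5.96 to -5.41 and gene 1596132 from -5.85 to -4.59. Gene 1288154 ranged from 0.47 to 1.16. No paired analysis was possible because the table holds 1 pooled value per substrate, and leaving out single libraries was not run for the same reason. The depth of the libraries is unknown, so its effect on low values was not tested.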
